A study of Mus musculus with 6 samples.

Results

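Expression of 9 genes of the Tgf-β pathway was followed in mouse hair follicle bulge stem cells (SCs) with and without integrin-linked kinase (ILK), an adaptor that couples integrins to actin. The genes are Pmepa1, Skil, Ski, Smad2, Smad3, Smad7, Smurf2, Tgfbi and Tgif1, chosen by name as the intracellular transducers of Tgf-β, their feedback regulators and direct targets. All 9 were found by symbol among the 43274 genes of the deposited tables. In this study, RNA of bulge SCs sorted by FACS as CD34+ and high in α6 integrin was sequenced from epidermis of mice aged 21 days. There were 3 control libraries from ILK fl/+ mice with K5-Cre, labelled ILK +/-, and 3 libraries from ILK fl/fl mice with K5-Cre, labelled ILK -/- and named ILK-K5. Both genotypes thus carried Cre under the K5 promoter, which is active in basal epidermal cells and in the hair follicle and not specifically in the bulge, and the controls also carried 1 floxed allele. All mice were on a C57Bl6-129/Sv background and controls were littermates of the ILK-K5 mice. How many mice went into a library was not given in the sources used here, so the p-values measure the spread between these libraries.

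Tgf-β ligands bind a pair of serine/threonine kinase receptors, which phosphorylate the receptor Smads Smad2 and Smad3. With Smad4 these move to the nucleus and switch genes on or off together with other factors. Several of the genes they switch on act back on the pathway. Smad7 and the ubiquitin ligase Smurf2 act on the receptors, Pmepa1 keeps receptor Smads from being recruited, and Ski, Skil (SnoN) and Tgif1 are corepressors that bind Smad complexes in the nucleus. In the hair follicle, Tgf-β2 from the dermal papilla is known to help bulge SCs and the hair germ to enter a new cycle. The comparison addresses whether the RNA of the pathway's own transducers, brakes and targets differed between control and ILK-K5 bulge SCs.

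Promoters were printed for 3 of the genes, a target, a ubiquitin ligase and a corepressor, as examples of the sequence around the start of genes that Smads may act on. RefSeq promoters of build GRCm38.p6, from 250 bases before to 50 after a transcription start, were used for 5 of the 9 genes. These were Ski, Smad3, Smurf2, Tgfbi and Tgif1. None was at hand for Pmepa1 and Skil. The chromosome of Smad2 and Smad7 was left out when the promoters were selected, so the motif counts below cover neither gene. Capitals mark the letters of the Smad box, CAGAC, or its reverse complement GTCTG. Each sequence reads 5′ to 3′ on the strand of its gene.
Tgfbi, chr13:56609336-56609635, plus strand: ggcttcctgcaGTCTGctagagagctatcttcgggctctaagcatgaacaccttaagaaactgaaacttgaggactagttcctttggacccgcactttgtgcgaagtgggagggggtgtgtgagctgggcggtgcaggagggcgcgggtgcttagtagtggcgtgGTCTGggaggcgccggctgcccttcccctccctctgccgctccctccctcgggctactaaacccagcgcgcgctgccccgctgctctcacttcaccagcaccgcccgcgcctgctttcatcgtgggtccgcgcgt
Smurf2, chr11:106920666-106920965, minus strand: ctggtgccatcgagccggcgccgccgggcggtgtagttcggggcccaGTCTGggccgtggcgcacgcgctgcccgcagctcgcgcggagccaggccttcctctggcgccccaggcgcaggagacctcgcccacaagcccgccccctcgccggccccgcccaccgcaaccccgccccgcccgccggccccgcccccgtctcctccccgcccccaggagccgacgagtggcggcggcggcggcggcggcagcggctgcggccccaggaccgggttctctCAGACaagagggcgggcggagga
Tgif1, first of 5 annotated starts, chr17:70853483-70853782, minus strand: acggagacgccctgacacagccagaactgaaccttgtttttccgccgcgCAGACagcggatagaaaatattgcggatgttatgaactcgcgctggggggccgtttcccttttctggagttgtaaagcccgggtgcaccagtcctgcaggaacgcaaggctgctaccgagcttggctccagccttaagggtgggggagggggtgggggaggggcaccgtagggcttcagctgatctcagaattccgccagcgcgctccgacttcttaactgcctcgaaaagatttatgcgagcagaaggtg

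The box began at -239 and -85 relative to the start in Tgfbi, at -203 and 28 in Smurf2 and at -201 in this Tgif1 promoter. Counting the 5 starts of Tgif1, 5 of the 9 promoters used held it, and 49.6% of all 32851 promoters did. The GC-rich Smad element GGCGC, on either strand, was found in 6 of the 9 promoters and in 36.9% of all. Neither the palindrome GTCTAGAC, found in 0.213% of all promoters, nor the AP-1 site TGAGTCA, found in 5.20%, was present in these 9 windows. The site TGTCA, to which Tgif1 binds, was found in 4 of 9, all of them Tgif1 promoters, and in 45.4% of all. In the 3 sequences shown no Smad box overlapped another of these motifs. The GC content ranged from 63.3% in Tgfbi to 85.3% in Ski for the genes with a single start and from 37.3% to 68.7% over the 5 starts of Tgif1, with a median of 52.7% over all promoters.

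Sequencing gave 8228019 to 11969072 gene-assigned reads in each library, and each of the 9 genes had at least 42 reads in every library. Values are given as normalized counts, the reads of a gene divided by a size factor of the library. In the fit across genes, a gene was called when its adjusted p-value was at most 0.05 (limma with Benjamini-Hochberg adjustment over the 16368 genes tested). Ilk, the targeted gene, was not lower in ILK-K5, with 10.6, 16.7 and 38.5 normalized counts in control and 14.8, 30.9 and 29.2 in ILK-K5 libraries (log2 fold change 0.30, adjusted p = 0.933), so its RNA gave no check of the labels and genotypes are given as labelled. Of the bases in its exons, 89.7% overlap exons of Taf10 or Rrp8 on the opposite strand, and the part of that overlap in these counts was not tested. Of the sort markers, Itga6 overlapped between genotypes (log2 fold change 0.36, adjusted p = 0.699), and Cd34 was lower, with 947 to 2009 normalized counts in control against 296 to 559.9 in ILK-K5 libraries (log2 fold change -1.90, adjusted p = 0.0239). The Cd34 call was lost on leaving out control library 1 (adjusted p = 0.0572), control library 3 (adjusted p = 0.0591), ILK-K5 library 1 (adjusted p = 0.0877) or ILK-K5 library 3 (adjusted p = 0.0798). Because RNA was measured in bulk, fewer cells of a type and less RNA per cell cannot be told apart.

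Of the 9 genes, 1 was called higher, Pmepa1, and none was called lower in ILK-K5 bulge SCs, where 2.93% of all genes tested were called higher, 0.599% lower and 3.53% either way. The unadjusted p-value was under 0.05 for 2 of 9, Pmepa1 and Skil, as it was for 12.3% of all genes tested. Pmepa1 was also the one member called by edgeR's quasi-likelihood test, which called 3.11% of genes, and by DESeq2, which called 5.17%, both run on the reads. The median log2 fold change of the 9 genes was 0.19, and that of all genes tested was 0.0054. In 3 of the 9, Pmepa1, Skil and Tgif1, every ILK-K5 library lay above every control library, as was so for 10.9% of all genes tested, and in none did every ILK-K5 library lie below, against 6.95% of all genes.

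**Figure D1:**
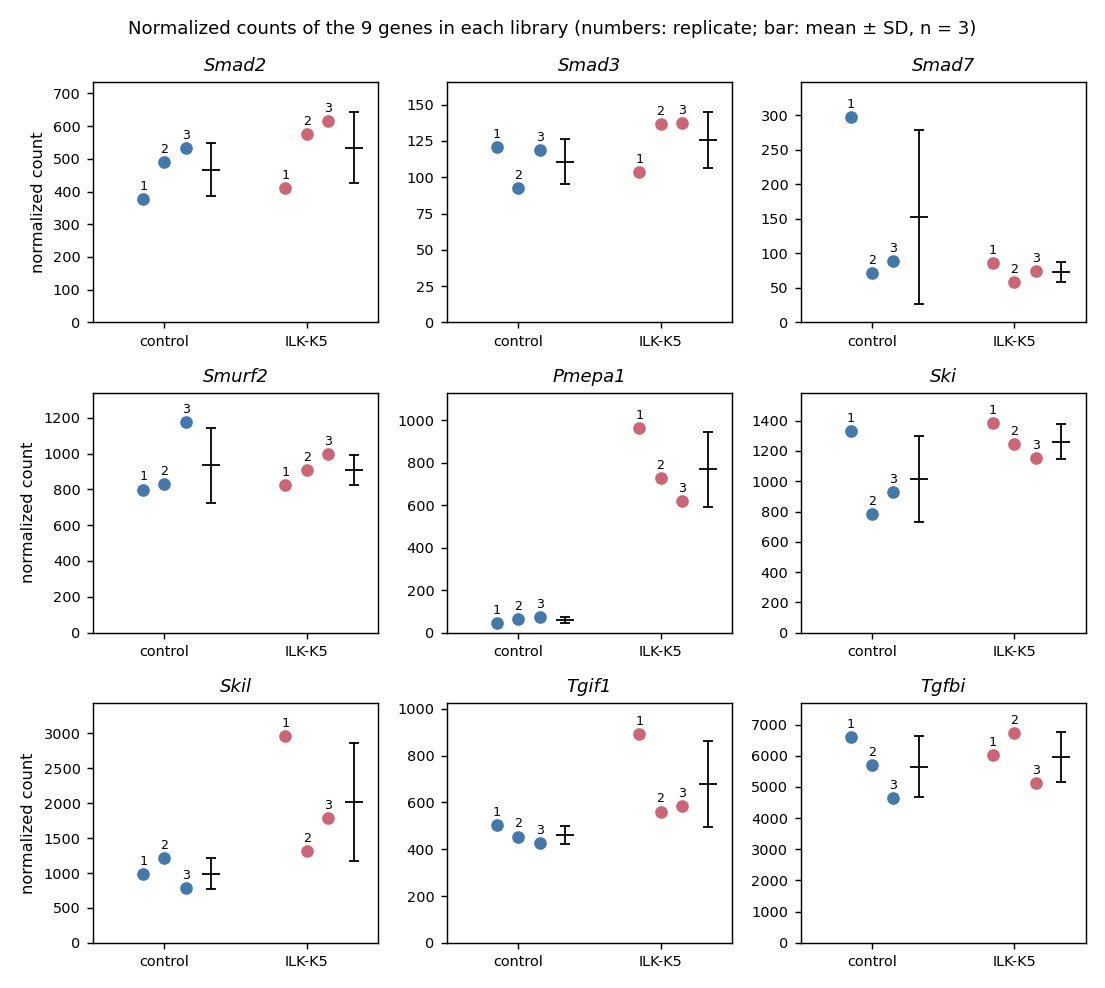
Normalized counts (vertical axes, each starting at 0) of the 9 genes in the 3 control and 3 ILK-K5 libraries, with the replicate number above each point and the mean ± SD beside them. Pmepa1 lies between 46.3 and 74.0 in control and between 619 and 963 in ILK-K5 libraries, whereas for Smad2, Smad3, Smad7, Smurf2, Ski and Tgfbi the genotypes overlap.

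For the transducers no difference was detectable. Smad2, a receptor Smad of the Tgf-β and activin branch on chromosome 18, had 376, 491 and 533 normalized counts in the controls, replicates 1 to 3, against 409.9, 575 and 615 in ILK-K5. Its genotypes overlapped, with a log2 fold change of 0.19 (95% interval -0.45 to 0.82, adjusted p = 0.901). Smad3, the DNA-binding receptor Smad of the same branch, lies on chromosome 9 from 63646767 to 63757994 (all gene positions are in GRCm38, from GENCODE M21). It had 121, 92.8 and 119.0 normalized counts in control and 104, 137 and 137 in ILK-K5 libraries. The log2 fold change of Smad3 was 0.18 (95% interval -0.56 to 0.92, adjusted p = 0.916). These intervals allow for Smad2 a fold between 0.73 and 1.77 and for Smad3 a fold between 0.68 and 1.89. Compared in FPKM, a value per length of transcript and per depth, Smad3 was the scarcer of the pair in every library. The log2 ratio of Smad3 to Smad2 in FPKM averaged -2.71 ± 0.39 (SD, n = 3) for the controls and -2.72 ± 0.089 (SD, n = 3) for ILK-K5, and did not differ detectably (two-sided exact permutation test, p = 1, where 3 against 3 libraries allow no p below 0.1).

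The inhibitory Smad, Smad7, is a feedback gene that receptor Smads induce. It had 297, 71.5 and 89.2 normalized counts in the controls, replicates 1 to 3, against 86.5, 57.8 and 74.0 in ILK-K5. The first control library stood apart, 3.33-fold above the highest of the other 5 libraries, which ranged from 57.8 to 89.2 normalized counts. The log2 fold change of Smad7 was -0.78 (standard error 0.54, adjusted p = 0.708), and -0.15 without control library 1 (adjusted p = 0.951). With the libraries of replicates 2 and 3 alone it was -0.28. Smurf2, a ubiquitin ligase that pairs with Smad7 to remove receptors, is encoded on chromosome 11 at 106820066 to 106920715. Control libraries held 799, 827 and 1174 normalized counts of it and ILK-K5 libraries 823, 905 and 996. Every ILK-K5 library of Smurf2 lay within the range of the controls, and the log2 fold change was -0.021 (95% interval -0.61 to 0.57, adjusted p = 0.989).

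Pmepa1 encodes a membrane protein that binds receptor Smads and ubiquitin ligases and is strongly induced by Tgf-β in many cells. The gene (ENSMUSG00000038400) lies on the minus strand of chromosome 2 from 173224458 to 173276533, and none of its 4913 exon bases is shared with another gene. It had 46.3, 63.9 and 74.0 normalized counts in control libraries 1 to 3, from 48, 42 and 102 reads. In ILK-K5 libraries 1 to 3 there were 963, 727 and 619 normalized counts, from 846, 943 and 635 reads. The lowest ILK-K5 library was 8.36-fold above the highest control, whereas the highest and lowest ILK-K5 libraries were 1.56-fold apart. The log2 fold change was 3.63 (standard error 0.32, 95% interval 2.91 to 4.35, adjusted p = 3.77e-04). The interval corresponds to a fold between 7.50 and 20.4. Only 340 of the 16368 genes tested had a larger rise. Pmepa1 was called in all 6 fits that each left out a library, with log2 fold changes between 3.44 and 3.77.

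**Figure D2:**
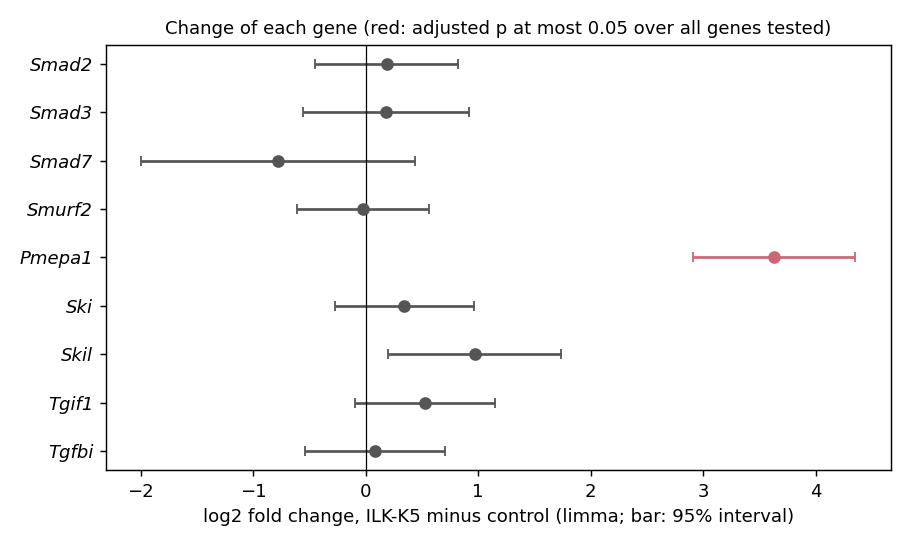
Log2 fold change of each gene between ILK-K5 and control libraries (horizontal axis) with its 95% interval from limma. Pmepa1 at 3.63 stands apart, and the intervals of the others except Skil, which reaches from 0.20 to 1.74, include 0.

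The corepressors of the Ski family and Tgif1 had the next highest log2 fold changes. Skil encodes SnoN, an early target of Smads that represses other targets, and lies on chromosome 3 from 31095058 to 31122577. It had 984, 1215 and 779 normalized counts in control and 2960.0, 1319.6 and 1789 in ILK-K5 libraries. All ILK-K5 libraries were above the controls, but the lowest of them exceeded the highest control only 1.09-fold, and ILK-K5 library 1 was 2.24-fold above ILK-K5 library 2. The log2 fold change of Skil was 0.97 (standard error 0.34, unadjusted p = 0.0188, adjusted p = 0.234 from limma), and it was 0.65 without ILK-K5 library 1. Skil was not called in any of the 12 other settings or the 6 fits without a library, where its adjusted p-value was at least 0.0766.
Ski, its relative and the founder of the family, lies on chromosome 4 from 155154075 to 155222592. It had 1329.5, 786 and 929 normalized counts in control and 1383, 1245 and 1156 in ILK-K5 libraries. The genotypes overlapped through control library 1, and the log2 fold change was 0.35 (95% interval -0.27 to 0.96, adjusted p = 0.763). The log2 ratio of Skil to Ski in FPKM averaged -0.82 ± 0.57 (SD, n = 3) for the controls and -0.20 ± 0.51 (SD, n = 3) for ILK-K5. The difference of 0.62 exceeded the SD of either genotype, but the libraries overlapped (two-sided exact permutation test, p = 0.2, or 0.4 adjusted over the 2 ratios tested), and with 3 against 3 libraries no p below 0.1 is possible.
Tgif1, a homeodomain protein that recruits histone deacetylases to Smad complexes, lies on chromosome 17 from 70844205 to 70853546. There were 504, 455 and 429 normalized counts in control and 893, 561 and 586 in ILK-K5 libraries. Again ILK-K5 library 1 was the highest of all. The log2 fold change of Tgif1 was 0.53 (95% interval -0.095 to 1.15, adjusted p = 0.535), so that a fold between 0.94 and 2.22 was within the interval.

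Tgfbi, named for its induction by Tgf-β, encodes a secreted matrix protein that binds integrins and collagens. The gene spans 56609523 to 56639562 on chromosome 13. Control libraries held 6594, 5705 and 4643 normalized counts of Tgfbi and ILK-K5 libraries 6009, 6738 and 5130.5. The genotypes overlapped almost fully, with a log2 fold change of 0.083 (95% interval -0.54 to 0.71, adjusted p = 0.960). The interval allows a fold between 0.69 and 1.63.

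Levels were compared between genes per length, in FPKM. In control libraries Tgfbi was the most abundant of the 9, at 216 ± 37.4 FPKM (SD, n = 3). It was followed by Ski at 18.7 ± 5.19, Smurf2 at 15.5 ± 3.48, Smad2 at 13.5 ± 2.34, Skil at 10.5 ± 2.31 and Tgif1 at 8.43 ± 0.69 FPKM. Smad7 at 3.46 ± 2.85, Smad3 at 2.05 ± 0.29 and Pmepa1 at 1.28 ± 0.29 FPKM were the lowest. Neighbours in the run from Ski to Tgif1 overlapped between libraries, as did Smad7 and Smad3, while Tgfbi lay above, and Pmepa1 below, all others in each control library. In ILK-K5 libraries Pmepa1 was at 16.1 ± 3.68 FPKM (SD, n = 3), the fourth of the 9. Its range overlapped those of Skil at 21.4 ± 8.94 FPKM and of Smad2 at 15.4 ± 3.14 FPKM. It also overlapped those of Smurf2 at 15.1 ± 1.43 FPKM and of Tgif1 at 12.4 ± 3.36 FPKM. Tgfbi remained the highest, at 228 ± 30.8 FPKM, and Smad7 was the lowest at 1.65 ± 0.33 FPKM, with a range overlapping that of Smad3.

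The 3 genes whose pattern over the 6 libraries was closest to that of Pmepa1, among 8507 other genes whose mean reached 100 normalized counts, were Cd84, Dock2 and H2-DMb1. Likeness was the root mean square difference of log2(normalized count + 1) after centring each gene, which was 0.077, 0.28 and 0.29 on the log2 scale for these genes and had a median of 1.88 over the genes compared. Cd84 is a receptor of the SLAM family on leukocytes, Dock2 a leukocyte activator of Rac, and H2-DMb1 a chain of the peptide loader of MHC class II. Cd84 was at 19.3, 22.8 and 30.5 normalized counts in the controls and at 408, 306 and 259 in ILK-K5. Its libraries fell in the same order as those of Pmepa1 in each genotype. The log2 fold changes were 3.69 for Cd84, 4.02 for Dock2 and 3.83 for H2-DMb1. The points share libraries and the genotype difference, and the likeness is a description.

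Markers of some other cell types were also higher in ILK-K5 than in control libraries. In ILK-K5 libraries 1 to 3 the macrophage sums were 868, 1479 and 1033 FPKM, and Pmepa1 was at 20.1, 15.2 and 12.9 FPKM. Single macrophage markers differed in their order over these libraries. Adgre1 was at 27.1, 23.9 and 21.7 FPKM, in the order of Pmepa1. Lyz2 was at 151, 405 and 280 FPKM, in the order of the sum. The 15 macrophage markers summed to between 5.66 and 12.4 FPKM in control and to between 868 and 1479 FPKM in ILK-K5 libraries, and 15 of 15 were called higher. In the controls C1qa, C1qb, Cd14 and Aif1 had at most 3 reads per library, and no macrophage marker was at 0 in all controls. The 7 markers of Langerhans and dendritic cells summed to 24.2 to 92.6 FPKM in control and 1567 to 2497 FPKM in ILK-K5 libraries. Of these 5 were called higher, the MHC class II genes Cd74, H2-Aa and H2-Ab1, and Itgax and Epcam. Cd207 and Zbtb46 were not called (adjusted p = 0.148 and 0.481 from limma). Neutrophil sums were 2.54 to 3.39 and 36.6 to 48.8 FPKM, with 2 of 4 tested called higher and Ly6g at 0 in every ILK-K5 library. T cell sums were 8.59 to 10.2 and 13.9 to 18.7 FPKM, with 1 of 4 tested called higher. For fibroblasts they were 10.1 to 14.6 and 22.7 to 30.7 FPKM, with 1 of 4 tested called higher and Lum at 0 in every control. The sums of endothelial markers (1.16 to 3.31 against 1.46 to 1.67 FPKM, Cldn5 at 0 in every control), melanocyte markers (13.7 to 26.5 against 6.76 to 13.9 FPKM), differentiated keratinocyte markers (260.4 to 1149 against 353 to 511 FPKM) and the 11 bulge SC markers (3320.0 to 9412 against 2349 to 4585 FPKM) overlapped between genotypes, with 0, 1, 1 and 1 of their genes called lower and none called higher. The part of these other cells in the results on Pmepa1, the other 8 genes and the pathway genes named below was not tested.

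**Figure D3:**
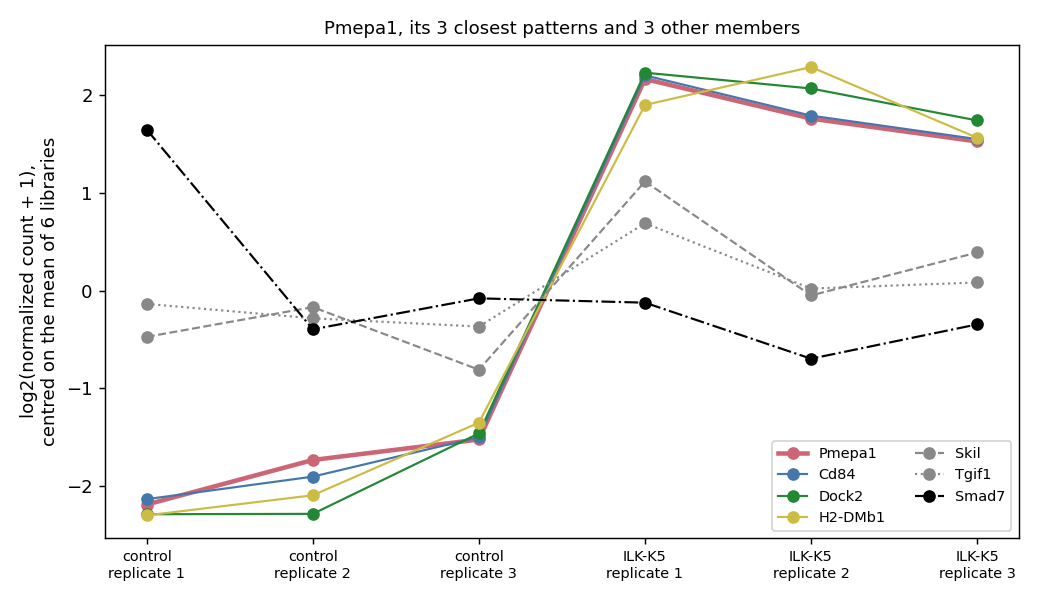
Log2(normalized count + 1) of each gene in the 6 libraries (horizontal axis), centred on its mean, with lines joining the values of 1 gene. Pmepa1 and Cd84 nearly coincide, with Dock2 and H2-DMb1 close by, while Skil, Tgif1 and Smad7 move far less between the genotypes and Smad7 stands out in control replicate 1.

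Other genes of the pathway were read from 4 lists of 68 genes in all, of which 64 were tested. The lists were chosen with earlier results of these data known, so a share of calls above that of all genes is no independent evidence. For the 64 genes tested the counts were as follows. Of these 9 were called higher and 3 lower, against 2.93% and 0.599% of all genes tested. Without control library 2 there were 5 called higher, without ILK-K5 library 2 there were 4 and without ILK-K5 library 3 there were 5, and without control library 3 there were 6 called lower. Among 16 other transducers and feedback regulators, 1 was called higher, Ldlrad4, and the median log2 fold change was 0.11. In 3 of the 16 every ILK-K5 library lay above every control library, against 10.9% of all genes tested. In another 3 every one lay below, against 6.95%. Ldlrad4 is a relative of Pmepa1 that also keeps receptor Smads from being activated. It had 18.3, 35.0 and 84.9 normalized counts in control and 439, 172 and 272 in ILK-K5 libraries, so that its log2 fold change came to 2.81 (SE 0.58, adjusted p = 0.0304). The Ldlrad4 call was lost without control library 2 (adjusted p = 0.143) and without ILK-K5 library 1 (adjusted p = 0.121), 2 (adjusted p = 0.0571) or 3 (adjusted p = 0.106). Smad4, the common partner of receptor Smads, was among the 15 not called, with 433, 429 and 464 normalized counts in control and 517, 524.5 and 508.5 in ILK-K5 libraries (log2 fold change 0.22, adjusted p = 0.838). It was named after its values were seen.

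Of 31 tested other targets that Tgf-β is known to raise, 6 were called higher, 2 lower and 23 were not called. Over all genes tested, 2.93% were called higher and 0.599% lower. The median log2 fold change was 0.87, against 0.0054 for all genes tested. In 13 of the 31 every ILK-K5 library lay above every control library, against 10.9% of all genes tested. In 4 every one lay below, against 6.95%. The genes called higher were the collagenase Mmp13, the gelatinase Mmp9, the transglutaminase Tgm2, fibronectin (Fn1), the protease inhibitor Timp3 and the integrin chain Itga5. Mmp13 had 0, 2 and 3 reads in the control libraries and 486, 753 and 365 reads in the ILK-K5 libraries, and no fold is given against so few. Fn1 had at most 231 normalized counts in a control library and 3299, 2746 and 1889 in ILK-K5 libraries, a log2 fold change of 4.10 (standard error 0.35). Mmp9 had 0, 1.52 and 4.35 normalized counts in control and 41.0, 54.0 and 63.3 in ILK-K5 libraries, and its call, from at most 6 reads in a control library, was lost without control library 2 (adjusted p = 0.0557) and without ILK-K5 library 1 (adjusted p = 0.0556), 2 (adjusted p = 0.104) or 3 (adjusted p = 0.114). The log2 fold changes of Tgm2, Timp3 and Itga5 were 4.35, 2.04 and 1.92. Leaving out ILK-K5 library 2 ended the call of Timp3 (adjusted p = 0.0603), and leaving out control library 2 (adjusted p = 0.0789), ILK-K5 library 2 (adjusted p = 0.132) or ILK-K5 library 3 (adjusted p = 0.0962) ended that of Itga5.
The genes called lower were Igfbp3, a secreted binder of insulin-like growth factors, and Ltbp2, a protein of elastic microfibrils. Igfbp3 had 2578, 1744 and 2820 normalized counts in control and 206, 372 and 337 in ILK-K5 libraries, a log2 fold change of -2.98 (standard error 0.32). Ltbp2 fell by 2.24 on the log2 scale. The study names Mmp9 and Mmp13 as targets of Tgf-β2, and the whole list was chosen with earlier results of these data known. Its genes are thus no independent evidence of the direction of Tgf-β signalling. Tmeff1, a target of Tgf-β2 in hair follicle SCs, was named after its values were seen and was not called, with 116, 73.0 and 50.8 normalized counts in control and 35.3, 22.4 and 40.9 in ILK-K5 libraries (log2 fold change -1.22, adjusted p = 0.310).

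**Figure D4:**
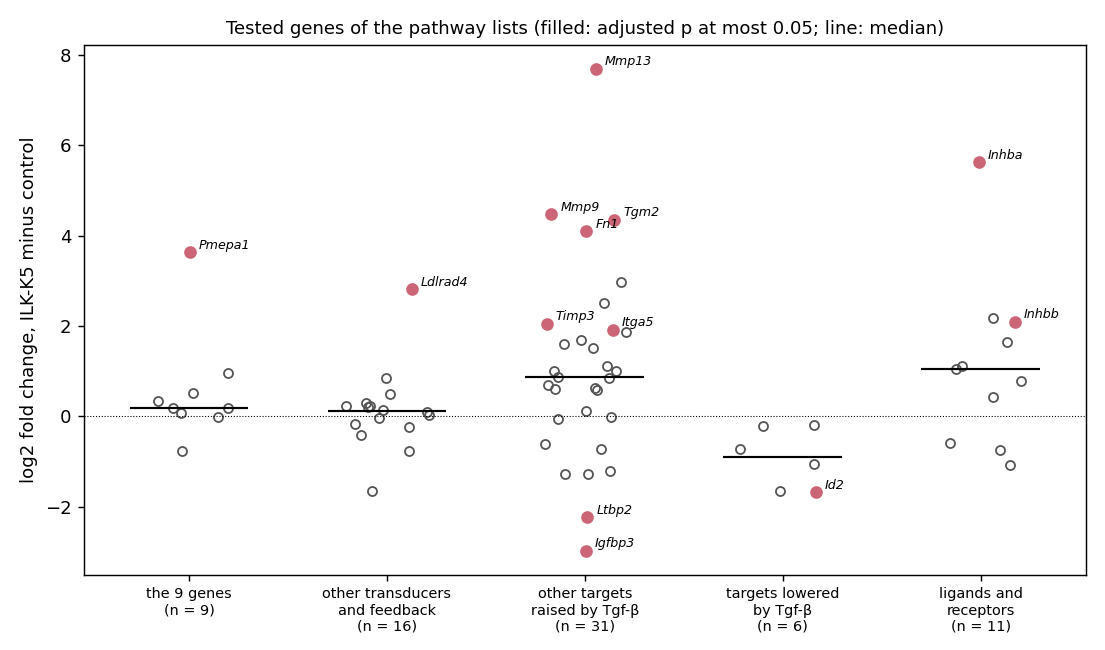
Log2 fold change between ILK-K5 and control (vertical axis) of the tested genes in each list, with the number tested below it, called genes filled and named and the median as a line. The 9 genes centre on 0.19 with Pmepa1 alone at 3.63, and the other targets raised by Tgf-β spread from -2.98 (Igfbp3) to 4.48 (Mmp9), with Mmp13 above them at a fitted value that depends on the pseudocount, since its controls had at most 3 reads. The value of Mmp9, from at most 6 reads in a control library, lay between 3.08 and 5.86 over the other settings.

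All 6 genes that Tgf-β is known to lower in epithelial cells had log2 fold changes below 0, as did 8103 of the 16368 genes tested. Their median was -0.90, against 0.0054 for all genes tested, and the genotypes of Myc and Cdc25a overlapped. In the other 4 every ILK-K5 library lay below every control library, against 6.95% of all genes tested. Of the 6, 1 was called lower, Id2, against 0.599% of all genes tested. It encodes an inhibitor of basic helix-loop-helix factors. Id2 had 2677, 1484 and 977 normalized counts in control and 401, 476 and 612 in ILK-K5 libraries, a log2 fold change of -1.68 (adjusted p = 0.0444). The Id genes, of which the list also holds Id1 and Id3, are also targets of Bmp. The call of Id2 was kept only without control library 3 when single libraries were left out, and its adjusted p-value rose to 0.0683 and 0.158 on leaving out control libraries 1 and 2 and to 0.152, 0.161 and 0.0894 on leaving out ILK-K5 libraries 1, 2 and 3. Of 11 tested ligands and receptors, 2 were called higher, against 2.93% of all genes tested. Both encode chains of activins, which signal through the same receptor Smads. Inhba had 9.65, 1.52 and 6.53 normalized counts in control and 214, 251 and 447 in ILK-K5 libraries, a log2 fold change of 5.63 (standard error 0.62). Its control libraries held at most 10 reads, and its log2 fold change lay between 4.83 and 6.27 over the 12 other settings. The second, Inhbb, had 169.8, 100.4 and 274 in control and 552, 752 and 894 in ILK-K5 libraries, a log2 fold change of 2.10 (standard error 0.39), a call that ended on leaving out control library 2 (adjusted p = 0.0651), ILK-K5 library 2 (adjusted p = 0.0887) or ILK-K5 library 3 (adjusted p = 0.0927). The median log2 fold change of the ligands and receptors was 1.04, with 8 above 0 and 3 below, against a median of 0.0054 for all genes tested. Tgfb2, which encodes the ligand Tgf-β2, was among those below and was not called (log2 fold change -0.75, adjusted p = 0.357 from limma). It was named after its values were seen.

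Across settings the picture of the 9 genes changed little. Pmepa1 was called in all 12 settings other than those that left out a library, and the other 8 genes in none of them, also where 6.82% of all genes were called with a replicate block and 6.92% with a term that set replicate 1 apart. Its log2 fold change lay between 3.27, with replicates 2 and 3 alone, and 3.65. The smallest adjusted p-value of any of the 8 was 0.0766, that of Skil with the latter term.

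**Figure D5:**
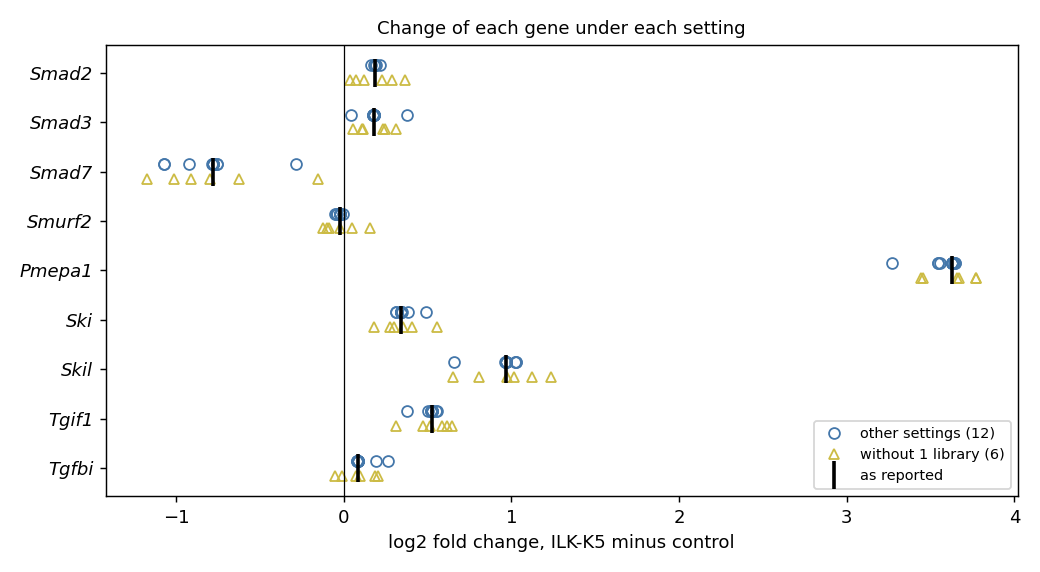
Log2 fold change (horizontal axis) of each gene as reported (bar), under 12 other settings (circles) and without each of the 6 libraries in turn (triangles). Pmepa1 stays between 3.27 and 3.77, while Smurf2 and Tgfbi lie on both sides of 0 and Smad7 reaches from -1.17 to -0.15.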

How the data were processed

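Bulge SCs were sorted by FACS directly into TRIzol LS, their RNA was amplified as cDNA (Ovation RNA-Seq System V2) and libraries were prepared with Nextera XT. The authors removed adapters and ribosomal RNA reads and aligned the rest to GRCm38. Their processing notes name TopHat2 2.0.14, Bowtie2 2.2.4 and DESeq2 1.6.3. The program that counted reads, and its use of strand, was not given in the sources used here. The authors deposited signal as normalized counts per gene (reads divided by a size factor) and FPKM values, which equal the normalized count times a constant per gene. In each library 100% of the values were whole multiples of the smallest within 1e-06, so the reads were recovered. Another 4 deposited files hold the authors' own comparison and were not used.

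Symbols came from GENCODE M21 for 42107 of 43274 genes (97.3%). Genotypes were compared with limma 3.58.1 in R 4.3.3 on log2(normalized count + 1), with a trend and two-sided, for 16368 genes, those whose mean reached 10 normalized counts. The script was tested on simulated data. The members and lists were chosen with earlier results of these data known. Genes named beside the members are Ilk, the sort markers, list genes that were called, Tgf-β targets that the study names (1 of them is not reported here), and the 3 genes closest to a called member, and exceptions are marked in the text. Alternatives were pseudocounts of 0.1 and 5, no filter, a mean of at least 50, TMM, quantile normalization, FPKM values (pseudocount 0.1), edgeR 4.0.16, DESeq2 1.42.0, a replicate block, a term setting replicate 1 apart from replicates 2 and 3 (each replicate has a number of its own in the column names, whose meaning was not given in the sources used here), and each library left out. The fit with replicates 2 and 3 only was added after the data were seen. Python 3.11.15, pandas 2.3.3 and matplotlib 3.10.9 were used for tables and plots. Trdc of the T cell markers had no row in the tables. With read totals of 8228019 to 11969072, 1 read stood for 0.726 to 1.52 normalized counts.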

Additional observations from a re-analysis of the deposited data

How the results depend on the processing

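Under the other settings Pmepa1 was called higher throughout and no other member was called. Over all genes tested, 479 higher and 98 lower genes became 782 and 266 with DESeq2, 848 and 269 with the replicate block and 846 and 286 with a term that set replicate 1 apart. Without 1 library they lay between 222 and 559 higher and between 32 and 98 lower, with 310 and 35 without control library 2 and 268 and 40, 222 and 32, and 245 and 41 without ILK-K5 libraries 1, 2 and 3. The 9 higher and 3 lower pathway genes became 15 and 6 with DESeq2, 18 and 5 with the replicate block and 18 and 5 with that term, and 1 was lower with replicates 2 and 3 alone. Without 1 library there were between 4 and 12 higher and between 2 and 6 lower. The cause was not tested. Correlations of the deviations of same-numbered libraries were 0.53, 0.020 and 0.31, so the numbers were not taken to pair the libraries; control and ILK-K5 library 1 correlated best with each other, and the rest did not all correlate best with their own number. Of the pathway calls, Ldlrad4 held in 9 of 12 settings, Id2 in 8, Ltbp2 and Inhbb in 11 each and Mmp9 in 10 of 11, and the other 7 (Fn1, Mmp13, Timp3, Tgm2, Igfbp3, Itga5 and Inhba) in all 12. Some small values changed sign: leaving out 1 library put the log2 fold change of Smurf2 between -0.12 and 0.16 (0.16 without control library 3, 0.047 without ILK-K5 library 1) and that of Tgfbi between -0.050 and 0.20 (-0.050 without control library 3, -0.0097 without ILK-K5 library 2), and the difference in the log2 ratio of Smad3 to Smad2 lay between -0.17 and 0.21 without 1 library, including 0.040 without ILK-K5 library 3. Depth limits Mmp9, Mmp13 and the rarest control values, where 1 read stands for up to 1.52 normalized counts.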
